A study of Ogataea parapolymorpha with 2 samples.

Results

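Lipid genes that are known only by a NOG number were followed in Ogataea parapolymorpha, a thermotolerant methylotrophic yeast named Hansenula polymorpha in the labels. They were the genes whose functional category in the deposited count table was exactly I, lipid transport and metabolism, and whose orthologous group was given as a NOG number with no COG number. A COG is a curated cluster of orthologous proteins, whereas a NOG is a cluster that was built automatically. The rule found 37 genes among 5408 features. They made up 35.2% of the 105 genes of category I, the other 68 of which carried a COG number.

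Cells of strain DL-1 with a leu- genotype were grown in rich glucose medium (YPD) at 37 °C to an optical density of 1.0. One part of the culture was collected as it was and gave the untreated library, while the other part received 20 mM caffeine for 2 h and gave the caffeine-treated library. Both groups therefore shared strain, genotype, medium and temperature, and each held 1 library. The comparison asks which lipid genes differ in transcript abundance after the drug, which yeast researchers use to stress the cell wall. No test between conditions was possible, and every difference below is a description of these 2 libraries. The labels describe no untreated part that was kept for the same 2 h, so that caffeine and time in culture cannot be told apart.

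Yeast cells build fatty acids from acetyl-CoA in the cytosol, place them in glycerophospholipids and sphingolipids of the endoplasmic reticulum and Golgi, and store the surplus as triacylglycerol and sterol esters in lipid droplets. Their beta-oxidation takes place in peroxisomes, the organelles that methylotrophic yeasts also use to oxidise methanol. The enzymes that make wall polymers sit in the plasma membrane, whose sterols and sphingolipids come from the same network. Which of these steps each of the 37 genes serves is not known here, because the tables give a NOG number and a category letter without a product name, and the genes are therefore called by their locus tags.

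Counted reads totalled 19184978 without caffeine and 17789838 with it. A gene was compared when it had at least 10 CPM (reads relative to the library's total, in units of 1e+06 reads) on either side, which held for 4861 of 5325 protein-coding genes. Levels are given as scaled CPM, for which the totals were first adjusted by the trimmed mean of M values (TMM), and differences as the log2 fold of caffeine-treated over untreated. The bracketed exact 95% interval after a fold reflects the number of reads alone. Scaling by library totals instead of TMM adds 0.22 to every log2 fold, and it moved the median of all compared genes from 0.01 to 0.23. Reads are relative within a library, so that a change in messenger RNA per cell would not be seen.

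Most of the 37 lipid genes had similar levels in the untreated and caffeine-treated libraries. Of the 31 that could be compared, 29 lay within 2-fold, 2 were at least 2-fold lower with caffeine and 0 were at least 2-fold higher. At 4-fold none of the 31 was past the limit, against 2.41% of all compared genes. Among all 4861 compared genes, 256 (5.27%) were at least 2-fold lower and 346 (7.12%) at least 2-fold higher, so that the members' 2 lower genes are near the background share. The median log2 fold of the 31 genes was -0.03, or 0.18 with library totals, with quartiles of -0.26 and 0.14 and a range from -1.53 to 0.93. Log2 folds smaller than 0.25 in size were found for 18 of the 31 genes (58.1%), against 37.4% of all compared genes, and with library totals for 15 (48.4%) against 34.3%. With library totals the split became 1 gene at least 2-fold higher and 1 lower, where the background shares were 11.6% and 3.6%.

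As a group the 37 genes took almost the same number of reads from both libraries. They drew 92135 reads from the untreated library, which is 0.480% of its reads (exact 95% binomial interval 0.477 to 0.483), and 92098 reads from the caffeine-treated library, which is 0.518% (0.514 to 0.521). Summed scaled CPM was 5180 without and 4800 with caffeine, a log2 fold of -0.11. The sign of this sum depends on the scaling, since the log2 fold was 0.11 with library totals. A single gene, HPODL_02801, supplied 20.9% of the members' reads in each library, and the sum without it had the same log2 fold of -0.11.

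**Figure D1:**
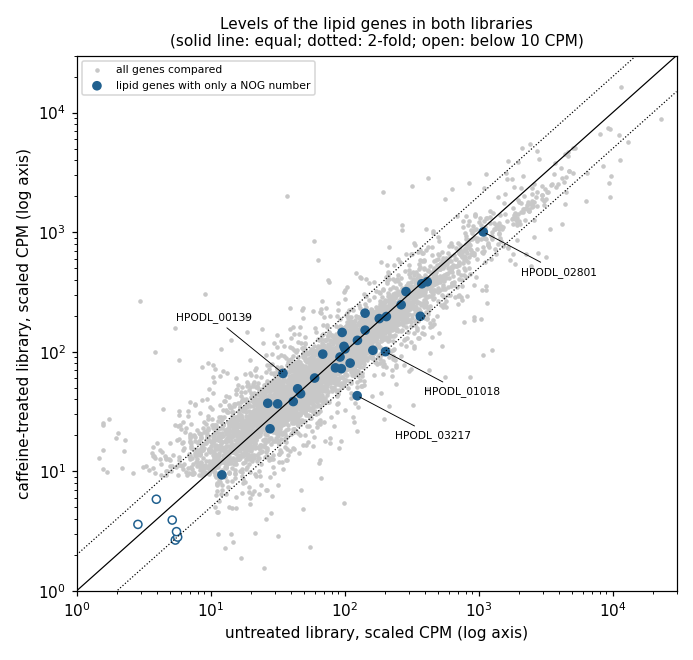
Scaled CPM in the untreated library (x axis, log) against the caffeine-treated library (y axis, log) for all compared genes (grey) and the 37 lipid genes with only a NOG number (blue, open where both libraries were below 10 CPM). The solid line marks equal levels and the dotted lines 2-fold; among filled points, HPODL_03217 lies clearly below the lower dotted line, and HPODL_01018 lies on it.

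The lowest fold belonged to HPODL_03217 (NOG04261), a gene of 891 bases. It had 2207 reads in the untreated and 823 in the caffeine-treated library, or 124 and 42.9 scaled CPM. The scaled level was 2.89-fold lower with caffeine, a log2 fold of -1.53 (-1.65 to -1.42) that was -1.31 with library totals. It was the single member past 2-fold under both scalings.

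HPODL_01018 (NOG03527) came next, with 3590 and 1921 reads, or 202 and 100.1 scaled CPM. Its log2 fold of -1.01 (-1.09 to -0.93) lies at the 2-fold limit, and the counting interval includes that limit. With library totals it was -0.79, within 2-fold. HPODL_03697 (NOG06358) was the most abundant of the 3 lowest genes, at 6537 and 3798 reads. Its level was 367 scaled CPM without and 198 scaled CPM with caffeine, and its log2 fold was -0.89 (-0.95 to -0.83).

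At the other end, HPODL_00139 (NOG09063) had 617 reads without and 1264 reads with caffeine, or 34.7 and 65.9 scaled CPM. Its log2 fold was 0.93 (0.79 to 1.07), a 1.90-fold higher level, and the interval includes 2-fold. With library totals the log2 fold was 1.14, which made it the single member at least 2-fold higher on that scale. HPODL_02461 (NOG04954) followed with 1705 and 2783 reads and a log2 fold of 0.60 (0.51 to 0.69). HPODL_01877 (NOG00993) had 2529 and 4031 reads and a log2 fold of 0.56 (0.49 to 0.64). These 3 genes were on the higher side under TMM and library totals alike, and the 3 lowest genes on the lower side under both. Adding 0.22 to every log2 fold could not have changed these signs.

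The other 25 compared genes lay between -0.66 and 0.48 on the log2 scale. In all, 13 compared members were above 0 and 18 below, which became 22 and 9 with library totals, so that the direction of the many small differences is set by the scaling. Counting intervals left out 0 for 21 of the 31 genes, 9 on the higher and 12 on the lower side, while the same held for 81.3% of all compared genes. Deep counts make such intervals narrow, from 0.03 to 0.29 log2 units to either side among these genes, and differences between cultures are not part of them.

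**Figure D2:**
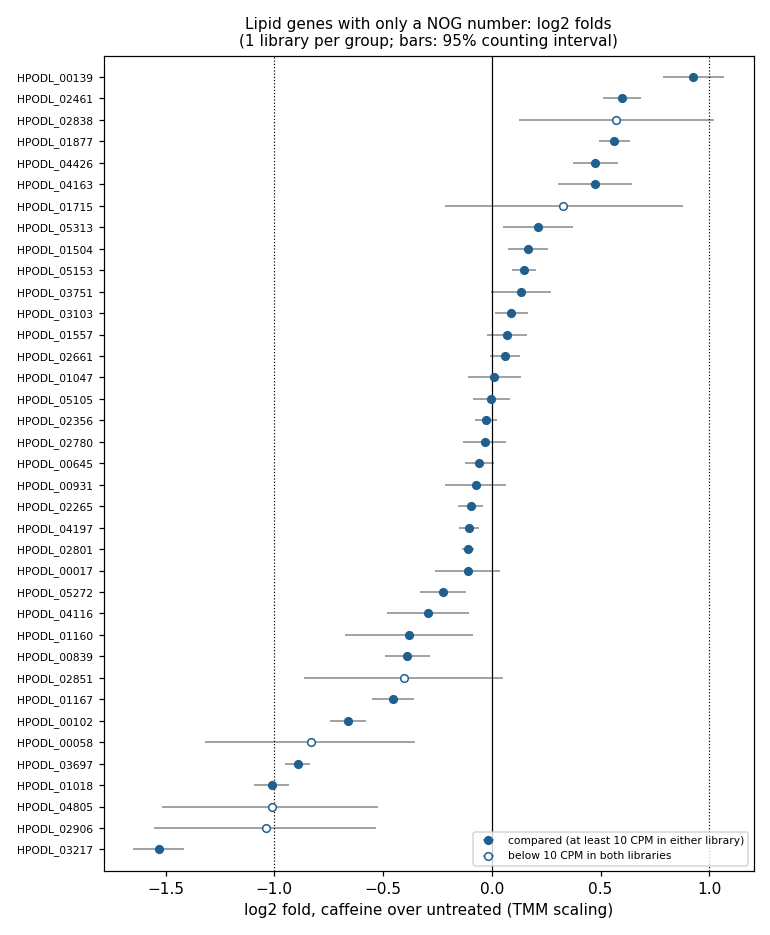
Log2 fold of caffeine-treated over untreated (x axis, TMM scaling) for each of the 37 lipid genes with only a NOG number (y axis, ordered by fold); bars are 95% counting intervals, dotted lines 2-fold, and open points the 6 genes below 10 CPM in both libraries. Of the filled points, 29 lie within 2-fold, and HPODL_03217 stands apart at -1.53.

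Among the 6 members with the highest level per listed length, log2 folds ran from -0.11 to 0.15 under TMM and from 0.11 to 0.37 with library totals. For the 6 highest by deposited RPKM they ran from -0.22 to 0.15 under TMM and from -0.005 to 0.37 with library totals. By listed length HPODL_03697, given above at -0.89, came next in the untreated order, at rank 7. HPODL_02801 (NOG21003) had 19289 reads in the untreated and 19283 in the caffeine-treated library, and its log2 fold was -0.11 (-0.14 to -0.08), or 0.11 with library totals. As RPKM computed from the counts and the listed length, its level was 1374 in the untreated and 1481 in the caffeine-treated library, and 122 of all compared genes had a higher untreated level.

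HPODL_05153 (NOG112675), of 274 bases, followed by this measure at 972 and 1252 RPKM. It had 5110 and 6105 reads and a log2 fold of 0.15 (0.09 to 0.20). HPODL_02356 (NOG51089), of 465 bases, came next at 752 and 859 RPKM, with 6710 and 7103 reads and a log2 fold of -0.03 (-0.08 to 0.02). The same 6 genes led the order in both libraries. The others were HPODL_02661 (479 RPKM untreated), HPODL_00645 (416 RPKM) and HPODL_05105 (358 RPKM). Further down, the order of levels was less certain, since the counting intervals of adjacent genes overlapped for 16 of 30 neighbouring pairs in the untreated and 14 of 30 in the caffeine-treated library.

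The 31 compared members had fairly high read levels per length when set against all compared genes. The 6 members below 10 CPM are not part of this, and the levels were not set against those of other lipid genes. Their median was 116 RPKM in the untreated library, and 23 of the 31 lay above the median of all compared genes, which was 48.6 RPKM. In the caffeine-treated library 25 of the 31 lay above that library's median.

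Short genes were frequent among the members. Of the 37, 14 (37.8%) had a listed length of 500 bases or less, against 9.78% of all protein-coding genes, 4.41% of the category I genes with a COG number and 9.76% of the genes in other categories that have only a NOG number. Their lengths ran from 201 bases (HPODL_03751) to 2661 bases (HPODL_03103), with a median of 891 bases against 1203 for protein-coding genes. Of the 14 short genes 10 could be compared. Their log2 folds ran from -0.38 to 0.47 with a median of -0.01, and 4 were above 0. The 21 longer genes held both ends of the range, from -1.53 to 0.93, with a median of -0.10. Per length, the short compared members had a median untreated level of 323 RPKM, against 72.1 RPKM for the longer members and 74.7 RPKM for all compared genes of 500 bases or less.

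The authors' deposited RPKM values rank the short members differently, because they rest on lengths shorter than the listed ones. For HPODL_03751 the deposited untreated value was 1121 RPKM, 5.45 times the 206 RPKM that follow from its 794 reads and listed 201 bases. For HPODL_05272 (NOG165636, 275 bases) it was 1247 RPKM against 288 RPKM, and for HPODL_05153 it was 4025 RPKM against 972 RPKM. By deposited RPKM in the untreated library HPODL_05153 was at rank 1, HPODL_02801 at rank 2, HPODL_05272 at rank 3 and HPODL_03751 at rank 5. By listed length HPODL_02801 was at rank 1, HPODL_05272 at rank 8 and HPODL_03751 at rank 11.

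Both of these lower-ranked genes lay within 2-fold under TMM and library totals. HPODL_03751 (NOG182998) had 794 and 940 reads and a log2 fold of 0.13 (-0.003 to 0.27). HPODL_05272 had 1521 and 1406 reads and a log2 fold of -0.22 (-0.33 to -0.12), which became -0.005 with library totals. HPODL_05105 (NOG75548, 323 bases), had 2218 and 2389 reads and a log2 fold of 0.22 with library totals, while under TMM its interval of -0.09 to 0.08 held 0.

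**Figure D3:**
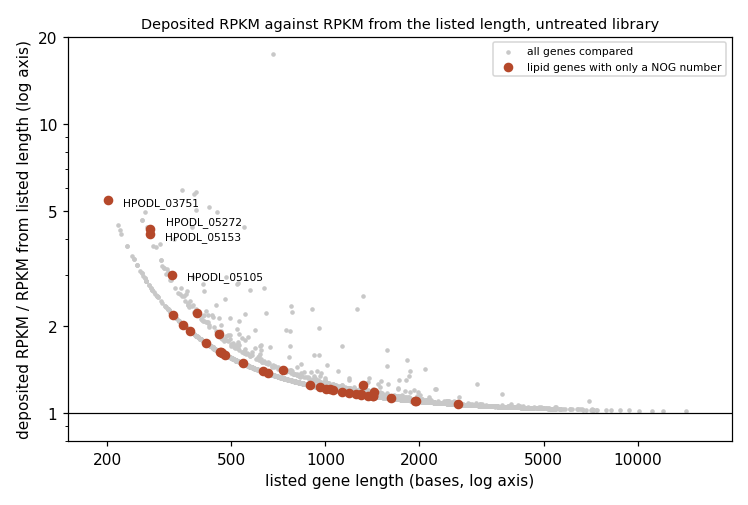
Ratio of the deposited untreated RPKM to the RPKM computed from counts and listed length (y axis, log) against listed gene length in bases (x axis, log), for all compared genes (grey) and the 37 lipid genes with only a NOG number (red). The ratio nears 1 for long genes and reaches 5.45 for HPODL_03751, the shortest member.

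The 37 genes carried 35 different NOG numbers, and a number was shared in 2 pairs. In NOG06358 both genes were lower with caffeine, HPODL_03697 at -0.89 and HPODL_01167 at -0.45 (-0.55 to -0.36), the latter with 1957 and 1541 reads. In NOG07820 the genes lay on either side of 0. HPODL_00017 had 736 and 735 reads and a log2 fold of -0.11 (-0.26 to 0.04), and HPODL_05313 had 563 and 703 reads and a log2 fold of 0.21 (0.05 to 0.37). With library totals both genes of NOG07820 were above 0, at 0.11 and 0.43. How reads of near-identical stretches were shared between such genes is not stated.

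Low expression kept 6 of the 37 genes (16.2%) out of the comparison, against 8.71% of protein-coding genes. All had 51 to 112 reads in each library. Reads were fewer with caffeine for HPODL_02906 (97 and 51), HPODL_04805 (101 and 54), HPODL_00058 (99 and 60) and HPODL_02851 (92 and 75). They were more numerous for HPODL_02838 (70 and 112) and HPODL_01715 (51 and 69). The log2 folds of HPODL_02906 and HPODL_04805 were -1.04 (-1.56 to -0.53) and -1.01 (-1.52 to -0.52), past 2-fold under TMM and at -0.82 and -0.79 with library totals. Intervals of these 6 genes reached 0.45 to 0.55 log2 units to either side, and those of HPODL_02906 and HPODL_04805 include the 2-fold limit.

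Lipid genes with a COG number had quartiles further apart than those with only a NOG number. Library totals cannot change this, because they add the same 0.22 to every log2 fold. Of their 68 genes 63 were compared. Within 2-fold lay 56 of them (88.9%, against 87.6% of all compared genes), while 2 were higher by 2-fold or more and 5 lower by 2-fold or more. Their median log2 fold was -0.05, or 0.17 with library totals, and the quartiles were -0.47 and 0.14. The range ran from -2.26 to 4.01, and 23 of the 63 (36.5%) had log2 folds smaller than 0.25 in size, against the 58.1% of the genes with only a NOG number. With library totals these shares were 36.5% and 48.4%. The gap between the sets in such shares near 0 depends on the scaling and the limit. Within 1.5-fold lay 69.8% of the COG-numbered genes and 80.6% of those with only a NOG number under TMM. With library totals the shares within 1.5-fold were 77.8% and 74.2%. Genes of other categories with only a NOG number had a median of 0.04 over 2105 compared genes, with 88.7% within 2-fold. With 1 library per group none of these differences between gene sets was tested. Both of the COG-numbered genes that were higher belong to COG0657, a group of esterases and lipases. HPODL_00907 went from 28 to 487 reads and HPODL_00871 from 104 to 562 reads. The former sets the upper end of the range of COG-numbered genes at 4.01. Both genes were below 10 CPM in the untreated library and were compared through the caffeine-treated library alone. They were named after their values were seen.

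Known steps of lipid metabolism, gathered by COG number, give the setting for the unnamed genes. For all compared genes the shares were 87.6% within 2-fold, 5.27% at least 2-fold lower and 7.12% at least 2-fold higher. Of 16 glycerophospholipid genes, which make the main membrane lipids, all lay within 2-fold, with a median log2 fold of -0.36, 11 below 0 and 5 above under both TMM and library totals. All 9 genes gathered for the steps from HMG-CoA synthase to squalene synthase, the entry to sterols, lay within 2-fold with a median of 0.07. Some of the 9 entered through COG0142 and carry category H instead of I, so that not all need serve this route. All 5 genes gathered for sphingolipid synthesis were within 2-fold as well, with a median of -0.14 that turned to 0.076 with library totals. Of these, 3 entered through COG0156, a family that holds the enzyme of the first step of heme synthesis besides subunits of serine palmitoyltransferase, so that not all need be sphingolipid genes. Of 10 genes gathered for beta-oxidation 1 was at least 2-fold lower, HPODL_01143 of the acyl-CoA dehydrogenase and oxidase group (COG1960), with 620 and 200 reads. The median of the 10 was -0.14, or 0.074 with library totals. They were gathered by COG number alone, so that not all need serve beta-oxidation.

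Of 8 sterol desaturase and cytochrome P450 genes 3 were at least 2-fold lower and 1 at least 2-fold higher, with a median of -0.88. The higher gene, HPODL_02874 (COG2124), had 164 and 473 reads. It was below 10 CPM in the untreated library and was compared through the caffeine-treated library alone. The cytochrome P450 genes carry category Q, and HPODL_04477 carries COG5274 besides COG3000, so that not all 8 need be sterol genes. Of 10 genes in fatty acid synthesis groups 8 lay within 2-fold, and the median was -0.0024, or 0.22 with library totals. In this list 1 gene was at least 2-fold lower, the fatty acid desaturase HPODL_01464 (COG1398), with 77892 and 32818 reads. Another, HPODL_01823, was at least 2-fold higher, with 14984 and 49117 reads. It entered the list through a biotin carboxylase domain (COG0439) and also carries an amidase group (COG0154), which is not a fatty acid enzyme. The beta-oxidation and fatty acid lists share HPODL_04992, a fatty acid synthase gene. The genes named from these lists were picked after their values were seen.

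**Figure D4:**
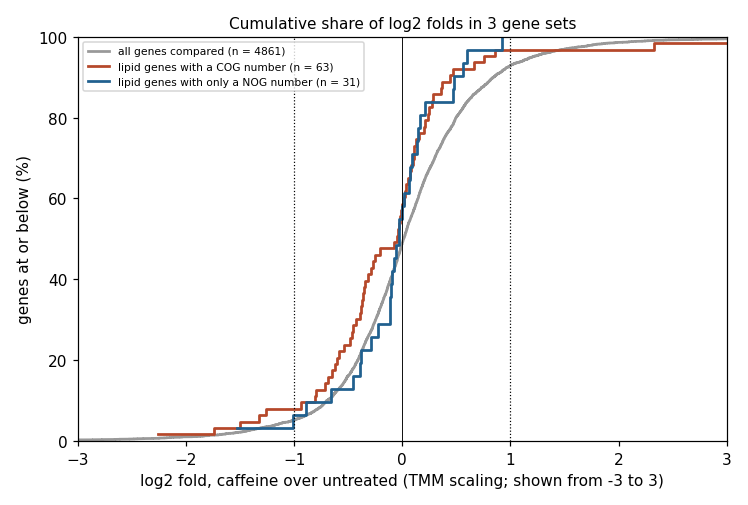
Cumulative share of genes (y axis, %) at or below each log2 fold of caffeine-treated over untreated (x axis, TMM scaling, shown from -3 to 3) for the 31 compared lipid genes with only a NOG number, the 63 with a COG number and all 4861 compared genes. The curve of the genes with only a NOG number climbs most steeply around 0, where 18 of its 31 genes have log2 folds smaller than 0.25 in size.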

How the data were processed

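The series holds 2 RNA-seq libraries, 1 per group. Per the labels' protocols, total RNA came from a hot phenol extraction, and a stranded mRNA kit and paired 100-base sequencing were used. Bowtie2 is named in the submitters' processing notes; not given in the sources used here are its version, the counter, the genome build and the annotation. Deposited were, for every gene, raw counts, RPKM and counts that the authors had scaled by RLE or TMM. Each value of the deposited scaled signal tables equalled the count times 1 constant per library, within 0.0051 plus 1e-06 of the count. The deposited RPKM values correspond to lengths below the listed ones, by a median of 176.8 bases without and 172.4 bases with caffeine.

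All 5408 locus tags matched a RefSeq table of assembly Hansenula_2, used for gene type and neighbours. Its 83 RNA features had 0 reads and were left out. TMM factors came from edgeR 4.0.16 (R 4.3.3). Genes with at least 10 CPM by library totals in either library were compared, with a count of 0 set to 3. For each gene the caffeine-treated part of its reads was given an exact 95% Clopper-Pearson interval, converted to a ratio. The interval reflects the number of reads alone. PCR copies cannot be told from separate molecules, so that it may be too narrow even for counting error. No count model was tested, because each group had 1 library. The calculation was tested on simulated data. The members and lists were chosen with earlier results of these data known. Genes named were the members past 2-fold, the 3 highest and 3 lowest, the 6 with the highest deposited RPKM, those sharing a NOG number and those below 10 CPM; the others are said to have been picked afterwards or are named for a rank or length. Alternatives were library totals, RLE size factors (DESeq2 1.42.0), no filter, 50 CPM, 5 CPM added, deposited RPKM and a 4-fold limit; RPKM from listed lengths, and the shares of small folds with library totals, were added after the data were seen. No sequence of these genes was used here.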

Additional observations from a re-analysis of the deposited data

How the results depend on the processing

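No paired analysis was possible because each group held 1 library, and for the same reason no library could be left out. Members at least 2-fold higher numbered 1 in place of 0 with library totals and with deposited RPKM. Members at least 2-fold lower numbered 1 in place of 2 with library totals, deposited RPKM or 5 CPM added, 4 without a filter and 0 at the 4-fold limit. The members' median log2 fold was 0.18 with library totals and 0.15 with deposited RPKM. With library totals the medians of the other lipid lists became 0.22 for fatty acid synthesis, 0.074 for beta-oxidation and 0.29 for mevalonate to squalene. They became -0.66 for sterol desaturases and cytochrome P450, -0.14 for glycerophospholipids, 0.076 for sphingolipids and 0.17 for category I genes with a COG number. Each moved by the same shift of 0.22. RLE size factors shifted folds by -0.01, and the counts of members kept their values. No member past 2-fold changed sign under these alternatives, but shifts of 0.22 or -0.01 could not have taken such folds across 0. For members below 10 CPM depth limits what can be said, with intervals of about 0.5 log2 units to either side.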

Other observations

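The length behind the deposited RPKM values differed among the members. For 8 of the 37 genes (21.6%) it was more than 10 bases shorter, in both libraries, than the usual shortfall of 176.8 and 172.4 bases, against 8.72% of all compared genes and 9.52% of the compared lipid genes with a COG number. The 8 include the most abundant member, HPODL_02801, with shortfalls of 213 and 208 bases, and HPODL_01715 with 261 and 259 bases. They also include all 5 members whose listed span is not a multiple of 3, which are HPODL_05105, HPODL_05153, HPODL_00645, HPODL_05272 and HPODL_01715. Among protein-coding genes 6.01% had such a span, against 13.5% of the members.

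No member lay next to another member in the RefSeq gene order, and no member's gene model overlapped its neighbour, although 28 of the 37 had a neighbour within 100 bases. The same shares were not computed for all genes, so that these counts show nothing particular to the members. The table lists every gene on the plus strand, so that the strands of neighbouring genes were not compared. The gene before HPODL_03217, the member with the lowest fold, is HPODL_03216, a category I gene of the enoyl-CoA hydratase group (COG1024). HPODL_03216 had 10147 and 8593 reads and a log2 fold of -0.35, against -1.53 for HPODL_03217. The gene after HPODL_00139, the member with the highest fold, had a log2 fold of -0.72.

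Matches to the NOG numbers differed in E-value. The table gives an E-value of 0 for 10 of the 37 genes and one above 1e-30 for 7. The largest, 2e-06, belonged to HPODL_02838, a gene of 324 bases below 10 CPM. E-values were not set apart from gene length, and the same counts were not made for other genes.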
